A study of Mus musculus with 2 samples.

Results

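The circadian clock genes were taken as 10 genes, matched by symbol in the GENCODE M21 annotation to the Ensembl identifiers of the deposited table. They were Arntl, Clock, Per1, Per2, Per3, Cry1, Cry2, Dbp, Nr1d1 and Nr1d2, and all 10 were found among 35275 genes. The cells were AML12, a non-transformed hepatocyte line from a male CD-1 mouse of 3 months that carries a transgene for human transforming growth factor alpha, and both groups come from this single line. Control cells (labelled Young) were untreated. Senescent cells (labelled Old) were exposed daily to hydrogen peroxide on 6 days, each time for 1 h, first to 1 mM and on later days to 0.75 mM, and recovered for 23 h in complete medium that contained serum and dexamethasone. RNA of 3 samples was pooled into 1 library per condition, so there was no replicate check, no p-value was computed, and a ratio below describes this pair of libraries rather than the conditions.

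The mammalian clock is a loop of transcription factors. CLOCK and BMAL1, the product of Arntl, bind E-boxes as a pair and activate the Per and Cry genes, whose proteins enter the nucleus and inhibit that pair. In a linked loop the nuclear receptors REV-ERBα (Nr1d1) and REV-ERBβ (Nr1d2) repress Arntl through ROR elements, where the ROR receptors activate, and DBP carries the rhythm to output genes through D-boxes. In hepatocytes this loop drives daily rhythms of metabolic enzymes, and in cultured cells glucocorticoids and fresh serum are known to set its phase. Each library was taken at a single harvest whose hour is not given in the sources used here, so a shift of phase and a shift of mean level cannot be told apart in any value below.

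Reads of each gene were scaled by edgeR's TMM method, which sets library sizes so that most genes have a ratio near 1. The log2 ratio of senescent over control has a 95% Clopper-Pearson interval from the split of reads between the libraries, which holds counting error alone. Genes were called higher or lower by 3 criteria, namely 10 or more reads in the libraries together, a log2 ratio past 1.5 (the threshold of the study's methods) and an interval that leaves out 0. There were 28021941 counted reads from control cells and 25738075 from senescent cells. Of all genes with at least 10 reads, 2.71% were called higher and 5.6% lower. Among the hepatocyte markers, all 11 had at least 10 reads, and 1 was called higher (Cps1, 19 and 55 reads). There were 2 called lower, Alb with 32076 and 2917 reads and Apoa1 with 2026 and 197. Cebpa (1993 and 626 reads, log2 ratio -1.44) and Ttr (23146 and 10486, -0.91) also lay below 0, and Krt18 (40512 and 60941, 0.82) lay above it. Markers of other liver cells other than Cd14 had few reads. The 8 fibroblast and stellate markers summed to 0.928 TMM-scaled CPM (control cells) and 0.323 (senescent cells), with Col1a2, Col3a1, Acta2 and Lum at 0 in both. The only one of the 8 with at least 10 reads, Col1a1, was called lower on 21 and 1 reads. The 5 endothelial markers summed to 0.206 and 0.524, and none had 10 reads. Of the 7 macrophage markers Adgre1 and Clec4f were at 0 in both libraries, and the sum of the 7, 194 and 82.1, was almost all Cd14. Only 4 of the 7 had at least 10 reads, of which 2 were called higher and 0 lower, beside 2.71% and 5.6% of all genes. The 2 were Ptprc (27 and 76 reads) and Csf1r (15 and 40). The interval of Cd68 (34 and 40 reads) held 0, and Cd14 (5551 and 1879, log2 ratio -1.33) lay below 0. The part of such cells in the clock values was not tested. In libraries from bulk cells, fewer cells of a type and less RNA per cell cannot be told apart.

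Promoter sequence was available for 9 of the 10 genes in RefSeq windows of GRCm38.p6, each from 250 bases before to 50 bases after an annotated start. The 13 windows were searched on both strands for the E-box CACGTG, the E′-box CACGTT, the D-box TTANGTAA, the ROR element (as in the Arntl line) and the cAMP response element TGACGTCA. Per2 had no entry. Stretches of 5 genes, picked because they hold a match, are shown, and that of Cry2, which also holds a match, is not. The capitals mark the match, with the E′-box read on the other strand as AACGTG. The first 4 are the 250 bases before the start, 5′ to 3′ on the gene's strand, and the last is 30 bases inside the Arntl transcript.
Nr1d1, chr11:98775378-98775627, minus strand: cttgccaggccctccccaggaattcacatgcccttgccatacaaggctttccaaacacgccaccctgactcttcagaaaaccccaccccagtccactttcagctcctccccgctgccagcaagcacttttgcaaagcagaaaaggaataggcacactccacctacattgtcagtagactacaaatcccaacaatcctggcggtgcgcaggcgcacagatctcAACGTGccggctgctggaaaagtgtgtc
Per1, chr11:69098699-69098948, plus strand: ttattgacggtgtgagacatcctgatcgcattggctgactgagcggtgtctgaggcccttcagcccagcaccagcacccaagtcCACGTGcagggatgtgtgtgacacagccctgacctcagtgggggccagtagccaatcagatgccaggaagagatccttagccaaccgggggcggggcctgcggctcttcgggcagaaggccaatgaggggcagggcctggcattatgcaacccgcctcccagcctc
Cry1, chr10:85185055-85185304, minus strand: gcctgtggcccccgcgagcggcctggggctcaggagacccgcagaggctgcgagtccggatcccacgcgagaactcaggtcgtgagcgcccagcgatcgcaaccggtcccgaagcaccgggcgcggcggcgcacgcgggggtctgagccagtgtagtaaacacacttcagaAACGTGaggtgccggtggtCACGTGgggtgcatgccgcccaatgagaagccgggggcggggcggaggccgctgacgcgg
Per3, chr4:151044666-151044915, minus strand: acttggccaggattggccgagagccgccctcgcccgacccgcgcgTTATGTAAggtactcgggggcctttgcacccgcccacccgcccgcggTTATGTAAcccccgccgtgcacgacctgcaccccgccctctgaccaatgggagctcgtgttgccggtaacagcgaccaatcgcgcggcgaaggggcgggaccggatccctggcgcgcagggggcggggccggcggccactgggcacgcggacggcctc
Arntl, chr7:113207528-113207557, plus strand: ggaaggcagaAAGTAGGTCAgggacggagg

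The E-box began 60 bases before the start in Cry1 and 166 bases before it in the first of the 2 windows of Per1, which both lie inside the gene as GENCODE draws it, and 7.15% of 32851 windows of the same length over all genes held this motif. The E′-box was found in Nr1d1 (28 bases before the start), Cry1 (79) and Cry2 (166), against 4.68% of all windows. Per3 held 2 D-boxes, 205 and 158 bases before its start, and 2.32% of all windows held any. The ROR element of Arntl lay 28 bases into the transcript, and only 0.219% of all windows held a match. Counted by window, 2 of the 13 held the E-box, 3 the E′-box, 1 the D-box and 1 the ROR element. The cAMP response element, present in 1.79% of all windows, was in none of the 13, and the windows of Clock, Dbp and Nr1d2 held none of these motifs. A match is a description of the letters and not a bound site, and a window without one says nothing about elements elsewhere in the gene.

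Among the 10 clock genes, Nr1d1 was 3.88-fold higher and Per2 was 3.89-fold lower in senescent cells. The other 8 genes stayed inside the threshold, with Per3 nearest to it on the higher side and Dbp on the lower side. Thus 1 of 10 was called higher, against 2.71% of the 14383 genes that had 10 reads or more, and 1 of 10 was called lower, against 5.6% (8.31% in either direction). At a threshold of 1 on the log2 scale Per3 joined Nr1d1 and Dbp joined Per2, giving 2 of 10 each way against 5.09% higher and 9.98% lower among all genes, or 15.1% in both directions. At a threshold of 2 there were 0 of 10 either way, against 1.52% and 3.2%, or 4.72% in all. The 10 log2 ratios ran from -1.96 to 1.96 around a median of -0.02, and the median of all 14383 genes was also -0.02. All 10 had at least 100 reads over both libraries, and none was near the floor of 3 reads. The counting interval left out 0 for 8 of the 10 (4 above and 4 below), beside a background at this depth in which the same held for 68.6% of all genes tested (34.0% above and 34.6% below). Allowing for an assumed coefficient of variation between cultures of 0.1 left these 8 of 10 without 0, against 38.7% of all genes. With an assumed value of 0.4 only Nr1d1 and Per2 among the clock genes left out 0, against 5.95% of all genes.

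**Figure D1:**
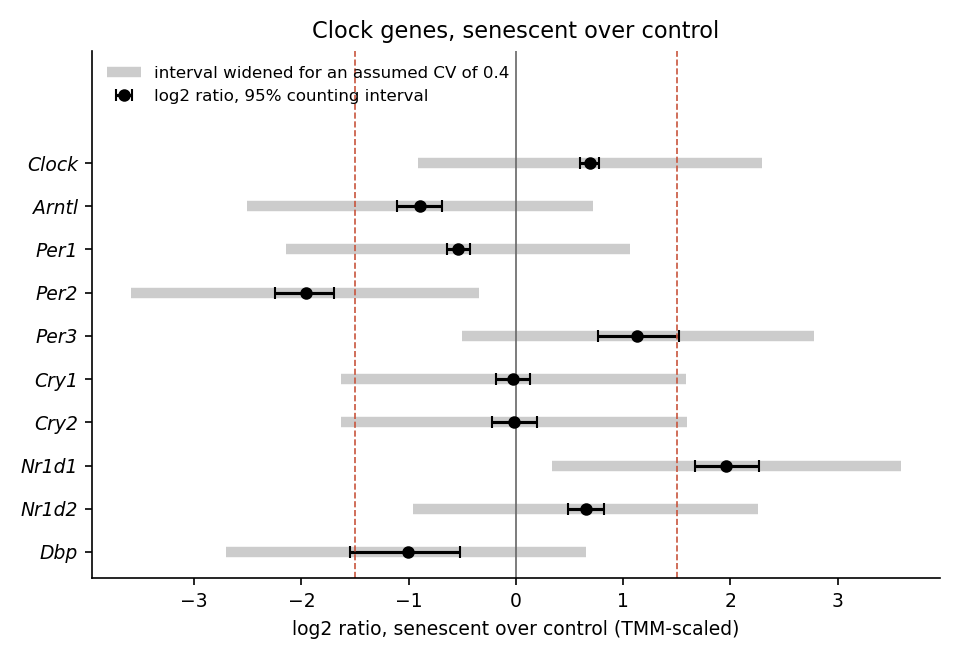
Log2 ratio of senescent over control for each clock gene (points) with its 95% counting interval (black bars) and the interval widened for an assumed coefficient of variation (CV) of 0.4 (grey bars), with dashed lines at the threshold of 1.5 in either direction. Nr1d1 at 1.96 and Per2 at -1.96 lie past the threshold, and theirs are the only grey bars without 0.

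The activators of the loop differed in direction. Clock (ENSMUSG00000029238, chr5:76209868-76304792 of GRCm38), which encodes the larger partner of the activating pair and has acetyltransferase activity, had 1785 control reads against 2457 in senescent cells. The log2 ratio of 0.69 (95% interval 0.60 to 0.78) lay inside the threshold. Arntl (ENSMUSG00000055116, chr7:113207465-113314126), which encodes BMAL1, had 616 control reads against 282 in senescent cells. At -0.90 (-1.11 to -0.69) it lay on the other side of 0, and the intervals of the partners did not overlap. Of the reads on this pair, Arntl took 25.7% in the control (Clopper-Pearson interval 23.9 to 27.5) and 10.3% in the senescent library (9.18 to 11.5). The ratio of Arntl to Clock reads was thus 3.01 times lower in the senescent library, a value that no library scaling can move.

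The Period genes encode the repressors that pair with the cryptochromes, and Per1 and Per2 lay below 0 on the log2 scale while Per3 lay above it. Per1 (ENSMUSG00000020893, chr11:69095217-69109960), also a direct glucocorticoid target, had 1946 control reads against 1143 in senescent cells (log2 ratio -0.54, interval -0.64 to -0.43). Per2 (ENSMUSG00000055866, chr1:91415982-91459324), without which the rhythm of mice is lost in constant darkness, fell from 623 to 136 reads (log2 ratio -1.96, interval -2.24 to -1.70). Only 3.35% of all genes tested had a lower ratio. Per3 (ENSMUSG00000028957, chr4:151003652-151044665), which is dispensable for the core rhythm in mice and whose promoter stretch with 2 D-boxes is printed above, had 90 control reads against 169 in senescent cells (log2 ratio 1.13, interval 0.76 to 1.52). It lay above 95.2% of all genes. Of the reads of Per2 and Per3, Per2 took 87.4% (84.7 to 89.7) in control cells and 44.6% (38.9 to 50.4) in senescent cells. In the pair with Per1, the share of Per1 went from 75.7% (74.0 to 77.4) to 89.4% (87.5 to 91.0). Per2 was thus lower relative to both of its paralogs.

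Cry1 and Cry2, the cryptochromes that carry most of the repression of CLOCK and BMAL1, had ratios close to 0 on the log2 scale. Cry1 (ENSMUSG00000020038, chr10:85131700-85185064) had 709 control reads against 594 in senescent cells (log2 ratio -0.03, interval -0.19 to 0.13). Cry2 (ENSMUSG00000068742, chr2:92403646-92434043) had 413 against 349 (log2 ratio -0.01, interval -0.22 to 0.20). For both, a difference within these intervals was not detectable at this depth. Cry1 took 63.2% (60.3 to 66.0) of the reads of the pair in control cells and 63.0% (59.8 to 66.1) in senescent cells. The log2 change of Cry1 over Cry2 was -0.01, with an interval of -0.27 to 0.25.

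**Figure D2:**
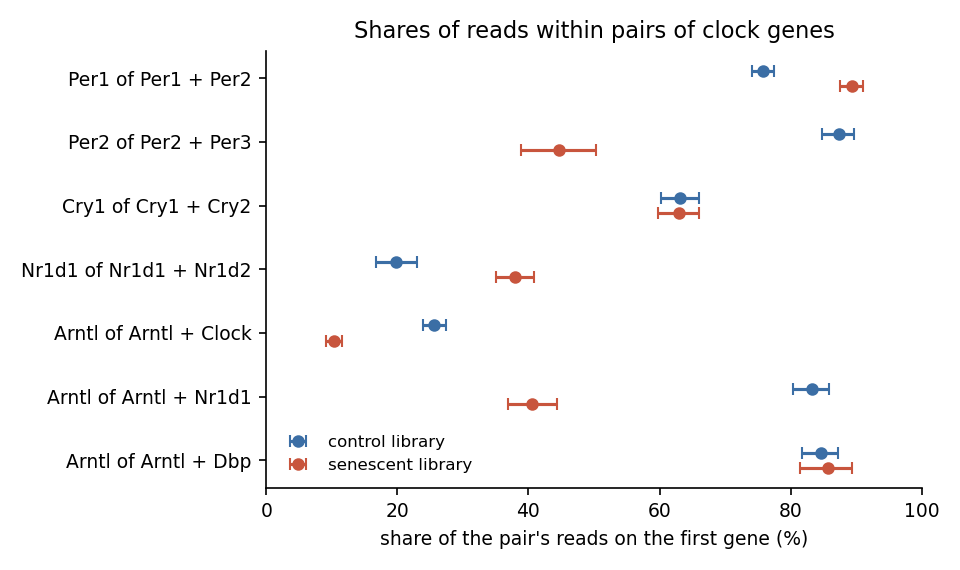
Share of a pair's reads that lie on the first gene (percent) in the control and the senescent library, with 95% Clopper-Pearson intervals, for 7 pairs of clock genes. Per2 went from 87.4% to 44.6% of the reads of Per2 and Per3 and Arntl from 83.2% to 40.6% of those of Arntl and Nr1d1, whereas the shares within Cry1 and Cry2 and within Arntl and Dbp overlapped.

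Both REV-ERB genes had higher ratios. Nr1d1 (ENSMUSG00000020889, chr11:98767932-98775333), whose product is a heme-binding repressor and whose promoter with an E′-box is printed above, rose from 124 control reads to 413 in senescent cells. At 1.96 on the log2 scale (1.67 to 2.27) it lay above 98.4% of all genes tested. Nr1d2 (ENSMUSG00000021775, chr14:18204054-18239127), its partly redundant relative, had 504 against 675 reads (log2 ratio 0.65, interval 0.48 to 0.82). The share of Nr1d1 in the reads of this pair was 19.7% (16.7 to 23.1) in control cells and 38.0% (35.1 to 40.9) in senescent cells, so the pair did not move in step. Nr1d1 lies tail to tail with Thra, a thyroid hormone receptor gene on the opposite strand, and 263 bases of exon, or 8.55% of the exon length of Nr1d1, belong to both. The use of strand in counting is not given in the sources used here, so reads in this overlap cannot be assigned with certainty. Thra itself had 1096 control reads against 826 in senescent cells, and at -0.18 (-0.31 to -0.05) it lay on the other side of 0 from Nr1d1.

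Dbp (ENSMUSG00000059824, chr7:45705088-45710203) encodes the D-box activator and is a classical direct target of CLOCK and BMAL1. It had the fewest reads of the 10 in the libraries together, 112 in control and 47 in senescent cells, although Per3 had fewer in control cells. Its interval was the widest of the 10, with a log2 ratio of -1.01 (-1.55 to -0.52). Dbp and Nr1d1, both known as E-box targets, thus lay on opposite sides of 0. Dbp and Arntl kept a similar ratio to each other, with a log2 change of Arntl over Dbp of 0.13 (-0.41 to 0.66) and Arntl at 84.6% (81.8 to 87.2) of the reads of this pair in control cells and 85.7% (81.5 to 89.3) in senescent cells. Of the reads of Arntl and its repressor Nr1d1, Arntl took 83.2% (80.4 to 85.9) in control cells and 40.6% (36.9 to 44.3) in senescent cells, a ratio 7.28 times lower. For Dbp, 18.0% of the exon length is shared with Sphk2 on the opposite strand, a sphingosine kinase gene with 1081 against 984 reads (0.09, interval -0.03 to 0.22). Smaller overlaps on the opposite strand touched Cry2, whose neighbour D930015M05Rik had 6 and 4 reads, and Arntl.

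Levels of different genes were compared as TMM-scaled CPM per kilobase of annotated exon. Per1 was the highest in the control library at 11.9 (95% Poisson interval 11.4 to 12.4), followed by Cry1 at 7.30 and Clock at 4.47. Per2 (3.66), Nr1d2 (3.20) and Arntl (2.82) came next, and Per2 and Nr1d2, like Nr1d2 and Arntl, did not differ beyond their intervals. Cry2 stood at 2.25, Nr1d1 at 1.39 and Dbp at 1.29, the last pair again within their intervals, and Per3 was lowest at 0.322. In the senescent library Per1 was again highest at 8.18 (7.72 to 8.67), and Clock (7.22) and Cry1 (7.17) were not separable. Nr1d1 came next at 5.41 (4.90 to 5.96), not separable from Nr1d2 at 5.03. Cry2 followed at 2.23 and Arntl at 1.51. Per2 (0.936), Per3 (0.709) and Dbp (0.633) formed the bottom of the order, with overlapping intervals between neighbours. In this order of 10, Nr1d1 moved from rank 8 to rank 4 and Per2 from rank 4 to rank 8. Summed over the 10 genes, the TMM-scaled CPM was 238 in control cells and 253 in senescent cells. With the length of the longest transcript in place of all exons, Nr1d1 had rank 9 and Per2 rank 6 in the control, and ranks 4 and 10 in the senescent library. By that length the top of the senescent order also changed, with Clock at 10.2 before Per1 at 9.87 and Cry1 at 7.91.

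**Figure D3:**
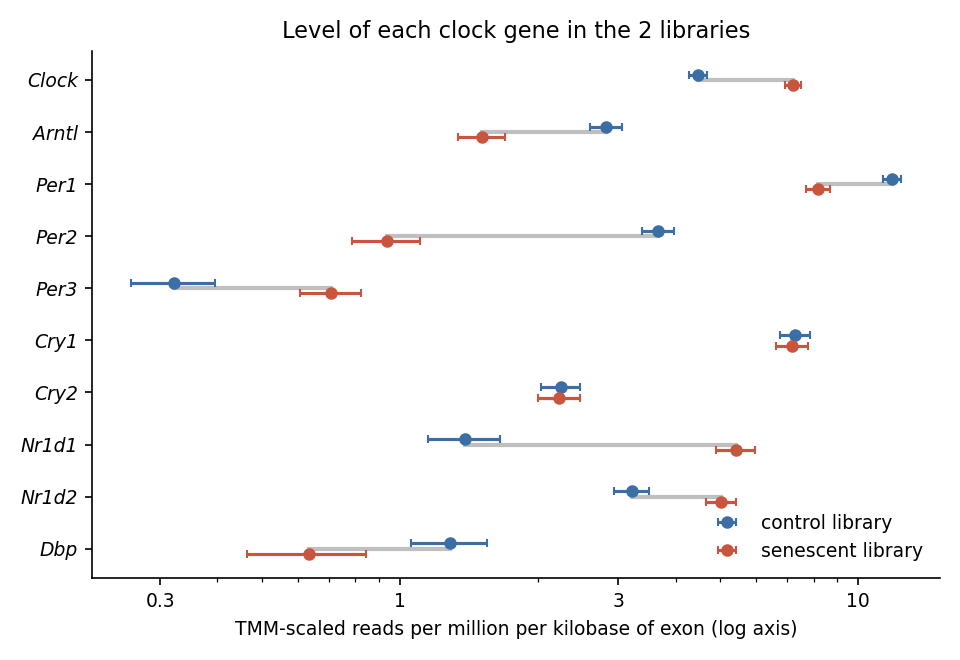
Level of each clock gene in the control and the senescent library, as TMM-scaled CPM per kilobase of exon on a log axis, with 95% Poisson intervals and a grey line joining the libraries. Nr1d1 moved from 1.39 to 5.41 and Per2 from 3.66 to 0.936, while the control and senescent points of Cry1, and those of Cry2, nearly coincide.

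**Figure D4:**
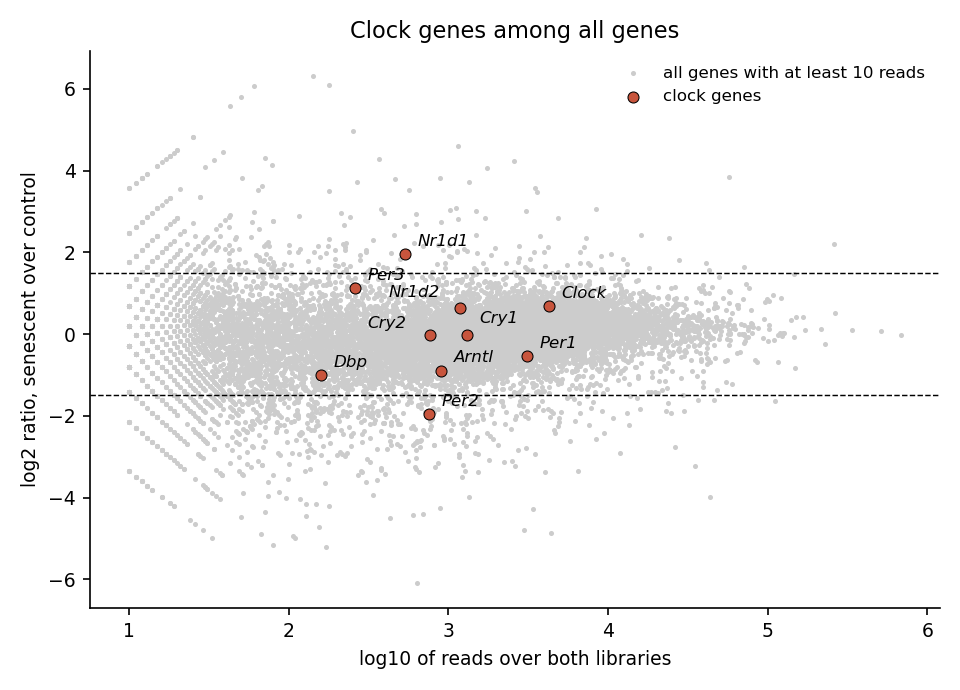
Log2 ratio of senescent over control against the log10 of reads over both libraries for all 14383 genes with at least 10 reads (grey) and the 10 clock genes (red), with dashed lines at the threshold of 1.5. Nr1d1 and Per2 lie outside the dashed lines, and the remaining 8 clock genes lie between them.

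The other transcription factors of the clock were a list of 11 genes, of which 9 had at least 10 reads. Of these 9, 1 was called higher and 1 lower, beside 2.71% and 5.6% of all genes tested, with a median log2 ratio of -0.42 against -0.02 for all genes. Rora, a receptor that activates through the ROR elements REV-ERB proteins repress, fell from 396 to 78 reads (log2 ratio -2.10, interval -2.48 to -1.76). Arntl2, a paralog of Arntl, was called higher on only 4 and 14 reads (1.78, interval 0.37 to 4.10). Bhlhe40, which encodes the E-box repressor DEC1, had 2861 against 1281 (-0.93, interval -1.03 to -0.83). Nfil3, the D-box repressor that opposes DBP, had 715 against 392 (-0.64, interval -0.82 to -0.46). Npas2, a paralog of Clock, and Hlf, a paralog of Dbp, each had 0 control and 2 senescent reads, and no difference was detectable at this depth. These last 2 were named after their values were seen.

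A list of 7 genes known to be under ROR elements shares 4 of its genes with the clock genes above (Arntl, Clock, Cry1 and Nr1d1). Of the 6 with at least 10 reads, 1 was called higher (Nr1d1) and 0 lower, beside the same 2.71% and 5.6%, and the median log2 ratio was -0.33. Among the targets other than Nr1d1 itself, the intervals of Arntl and Nfil3 lay below 0, that of Clock above 0 and that of Cry1 held 0, so these genes did not share a direction.

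The kinases, ubiquitin ligases and partner proteins that set the stability and activity of the clock proteins were a list of 25 genes. Of these, 0 were called higher and 1 lower (2.71% and 5.6% of all genes), and their median log2 ratio was 0.22. Usp2, a deubiquitinase that is itself rhythmic in liver, fell from 75 to 5 reads (log2 ratio -3.45, interval -5.34 to -2.39). Fbxl21, an F-box protein that binds cryptochromes, had 229 and 92 reads (-1.08, interval -1.45 to -0.73). Csnk2a2, a catalytic subunit of casein kinase II, had 1070 and 1373 reads (0.59, interval 0.47 to 0.71), and Fbxw11, a subunit of a ligase that acts on PER proteins, had 3425 and 4327 (0.57, interval 0.50 to 0.63). The remaining 21 genes had log2 ratios between -0.29 and 0.47.

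Of 17 genes listed as clock-controlled outputs, 13 had at least 10 reads, and 0 of these were called higher and 0 lower (2.71% and 5.6% of all genes), with a median log2 ratio of 0.01. Lonrf3, a RING finger gene, came nearest to the threshold with 209 against 472 reads (log2 ratio 1.40, interval 1.17 to 1.65). Ppara, the nuclear receptor of fatty acid oxidation, had 1062 and 438 reads (-1.05, interval -1.21 to -0.89), and Upp2, a uridine phosphorylase, had 69 and 33 (-0.82, interval -1.48 to -0.22). The other 4 genes, all known as rhythmic in liver, had under 10 reads. Elovl3 and Rgs16 had no reads in either library, Gys2 had 0 and 3, and Cyp7a1, the rate-limiting enzyme of bile acid synthesis, had 0 and 7. These 4 were named after their values were seen.

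**Figure D5:**
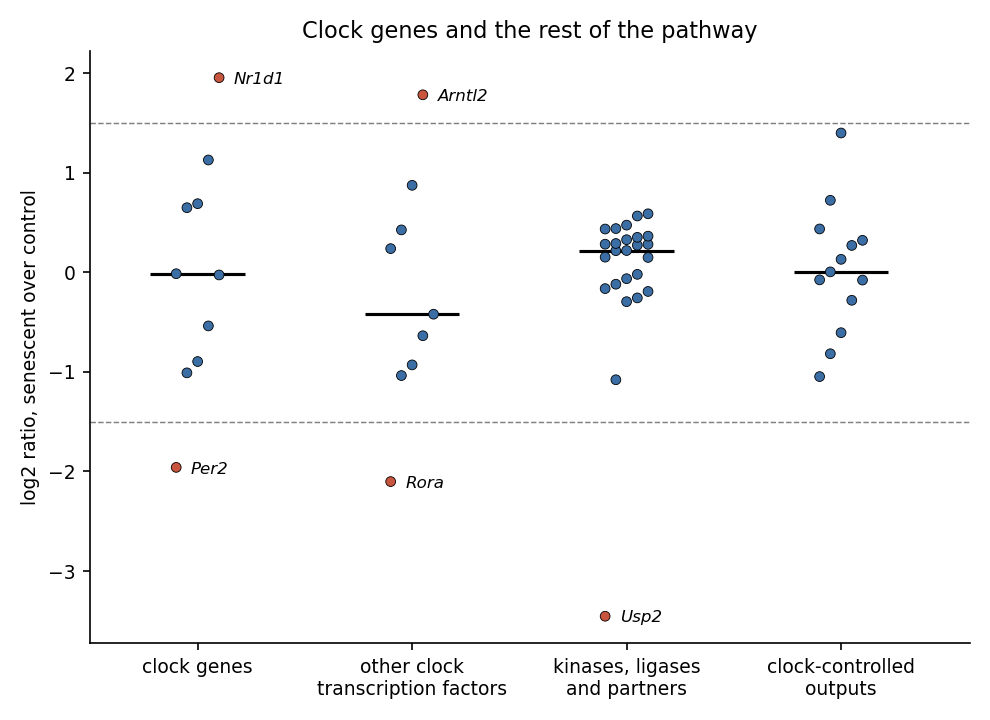
Log2 ratio of senescent over control for the genes with at least 10 reads among the clock genes, the other clock transcription factors, the kinases, ligases and partners, and the clock-controlled outputs. Each point is a gene, red points are genes called higher or lower, black bars are medians and dashed lines mark the threshold of 1.5. The medians lie at -0.02, -0.42, 0.22 and 0.01.

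Because glucocorticoids and serum set the phase of the clock in culture, genes that respond to them were read beside the clock genes. Of 12 genes of the glucocorticoid response, the receptor gene Nr3c1 among them, 9 had at least 10 reads, of which 0 were called higher and 2 lower (2.71% and 5.6% of all genes), with a median of 0.03. Zbtb16 fell from 1081 to 146 reads (-2.65, interval -2.92 to -2.41) and Dusp1 from 1684 to 464 (-1.63, interval -1.78 to -1.48). Fkbp5 stood at 0.41 on the log2 scale (0.38 to 0.44), on 15461 against 17519 reads, whereas Tsc22d3 had -0.42 (-0.50 to -0.34) and Klf9 -0.18 (-0.24 to -0.13). Of 12 immediate-early and serum-induced genes, 2 were called higher and 0 lower, against the same shares of all genes. Fosl1 rose from 1510 to 5171 reads (2.0, interval 1.92 to 2.09), and Fosb rose from 2 to 178 (6.09, interval 4.83 to 9.76). The 2 control reads of Fosb lay under the floor of 3, so the size of its difference is poorly fixed. It is better read from the lower end of its interval, 4.83 on the log2 scale. Jun had 1938 and 587 reads (-1.49, interval -1.63 to -1.36), Sik1, a kinase gene of the cAMP response, had 4476 and 1778 (-1.10, interval -1.18 to -1.02), and Fos had 44 and 78 (1.04, interval 0.50 to 1.62). Whether control cells received the same changes of medium is not given in the sources used here, and the part of dexamethasone or serum in the clock values was not tested.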

How the data were processed

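RNAseq was analysed in control and senescent AML12 cells, with 1 library per condition from 3 pooled samples. The authors deposited un-normalized counts of reads per gene, listed by Ensembl identifier. The submitters' processing notes name CASAVA, STAR, DESeq2, edgeR and the build mm10 (GRCm38). The counting tool, annotation and use of strand are not given in the sources used here. Poly(A) RNA was copied with random primers. Columns were matched to samples by the initials of their titles, Old and Young. Symbols, positions and exon lengths came from GENCODE M21 (GRCm38), which paired 34490 of 35275 genes (97.8%) with a symbol.

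Counts were scaled with TMM in edgeR 4.0.16 (R 4.3.3), and for alternatives with DESeq2 1.42.0 size factors, upper quartiles and totals. The TMM factors were 1.04 (control) and 0.964 (senescent). Ratios and intervals were computed in Python 3.11.15 with scipy 1.17.1, with a prior count of 1 in proportion to library size, over the whole table, and plots were drawn with matplotlib 3.10.9. With 1 library per group no quasi-likelihood test could be used. Reads from PCR that carry no molecular identifier do not count molecules, so intervals and the floor of 3 reads cover only counting error. Widened intervals assume a coefficient of variation between cultures of 0.1 or 0.4. No fold is given where a library had 0 reads. The script was tested on simulated data.

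All 10 members are named. Of each other list, genes counted as higher or lower and up to 3 more with the largest ratio among those with at least 100 reads are named, as are cell type markers at 0, and other exceptions are marked. A gene that this rule covers is not reported here. The members and lists were chosen with earlier results of these data known. With 2 libraries no likeness of pattern between genes is defined, so none was computed.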

Additional observations from a re-analysis of the deposited data

How the results depend on the processing

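Nr1d1 stayed the clock gene counted as higher and Per2 the one counted as lower under DESeq2, upper-quartile and total-count scaling, minima of 1 and 100 reads, prior counts below 1 and of 5, and both assumed coefficients of variation. Only the threshold moved these counts. At 1 there were 2 higher (Nr1d1 and Per3) and 2 lower (Per2 and Dbp), and at 2 there were 0 higher and 0 lower. Among the other clock genes, 1 was higher and 2 were lower in the reported setting. The higher count was 2 with at least 1 read, 0 with at least 100 reads, 0 with a prior count of 5, 0 with a coefficient of variation of 0.4, 2 at a threshold of 1 and 0 at a threshold of 2. The lower count was 1 with at least 100 reads and 5 at a threshold of 1. Over all genes, 390 were higher and 805 lower, 732 and 1435 at a threshold of 1, 219 and 460 at a threshold of 2, 259 and 602 with a prior count of 5, 261 and 595 with a coefficient of variation of 0.4, and 141 and 395 with at least 100 reads. Total-count scaling moved the median of all genes by -0.11. It left no clock gene on another side of 0 and moved only Clock out of its counting interval. The median of the clock genes ran from -0.13 with total counts to -0.02. Levels per kilobase moved beyond their intervals in 17 of 20 values with the longest transcript. No paired analysis was possible because each condition has a single library. Npas2 and Hlf, at or under the floor of 3 reads in both libraries, allow no fold at this depth.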
